A study of Drosophila melanogaster with 8 samples.

Results

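The genes described here are 9 transcription factor and cofactor genes that specify the wing pouch, its dorsal compartment and its intervein tissue: nub, pdm2, vg, sd, rn, dve, bs, Dll and ap. They were chosen by symbol and are 9 of 18354 gene rows in the table of normalized counts. RNA came from wing imaginal discs of third-instar Drosophila melanogaster larvae, with 150 discs per library, kept at 25 °C until dissection on day 7 after egg laying. The 4 libraries labelled ecd-RNAi came from larvae with nub-Gal4, UAS-mRFP and UAS-ecd-RNAi, and the 4 control libraries from larvae with nub-Gal4 and UAS-mRFP. All discs therefore carried the nub driver and the red fluorescent protein. The driver is active in the pouch and part of the hinge only, so every library also held untargeted notum, and each pooled many animals. The gene nub is both a member and the locus whose activity the driver reports.

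The wing pouch is the part of the disc that becomes the wing blade. Its identity depends on a complex of Vg, a cofactor, with Sd, a TEAD-family protein that binds DNA, which together activate wing genes. Ap marks the dorsal compartment, Nub and Rn are present across the pouch and needed for its growth, and Bs, the fly serum response factor, directs cells between the veins to the intervein fate.

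The targeted gene went against its label. The gene ecd (FBgn0000543) was at 1416, 1208, 1307 and 1462 normalized counts in libraries labelled ecd-RNAi, against 1052, 1015, 1047 and 998 in control libraries. It was higher in all 4 libraries labelled ecd-RNAi (log2 fold change 0.39, SE 0.06, adjusted p = 0.000245, limma with Benjamini-Hochberg), and reads from an RNAi hairpin are not separated in these values. Each direction below compares the libraries as labelled. Normalized counts summed to between 27404000 and 32624000 in libraries labelled ecd-RNAi and between 35111000 and 37880000 in controls. Ribosomal RNA took 26.6% to 35.2% of the sum in libraries labelled ecd-RNAi and 48.9% to 52.9% in controls, so shares of the total are not used here. The lowest member value in any library was 435 normalized counts, far above single reads.

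All 9 members had lower means in the libraries labelled ecd-RNAi, by very different amounts, although nub turned slightly higher with quantile normalization. The intervein factor bs fell most, followed by dve, Dll and rn, while nub changed least. Of the 9380 genes tested, 31.7% were called lower and 30.8% higher, 62.5% in all, so a lower call is common in this comparison. In 8 of 9 members no library labelled ecd-RNAi reached any control library, nub being the exception, and 29.2% of tested genes were lower without overlap. The median log2 fold change was -0.64 over the members and 0.00 over all tested genes. Together the members took 0.231% ± 0.00554 of the protein-coding signal in libraries labelled ecd-RNAi and 0.345% ± 0.00740 in controls (SD, n = 4). In bulk discs, fewer cells of a type and less RNA per cell cannot be told apart.

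**Figure D1:**
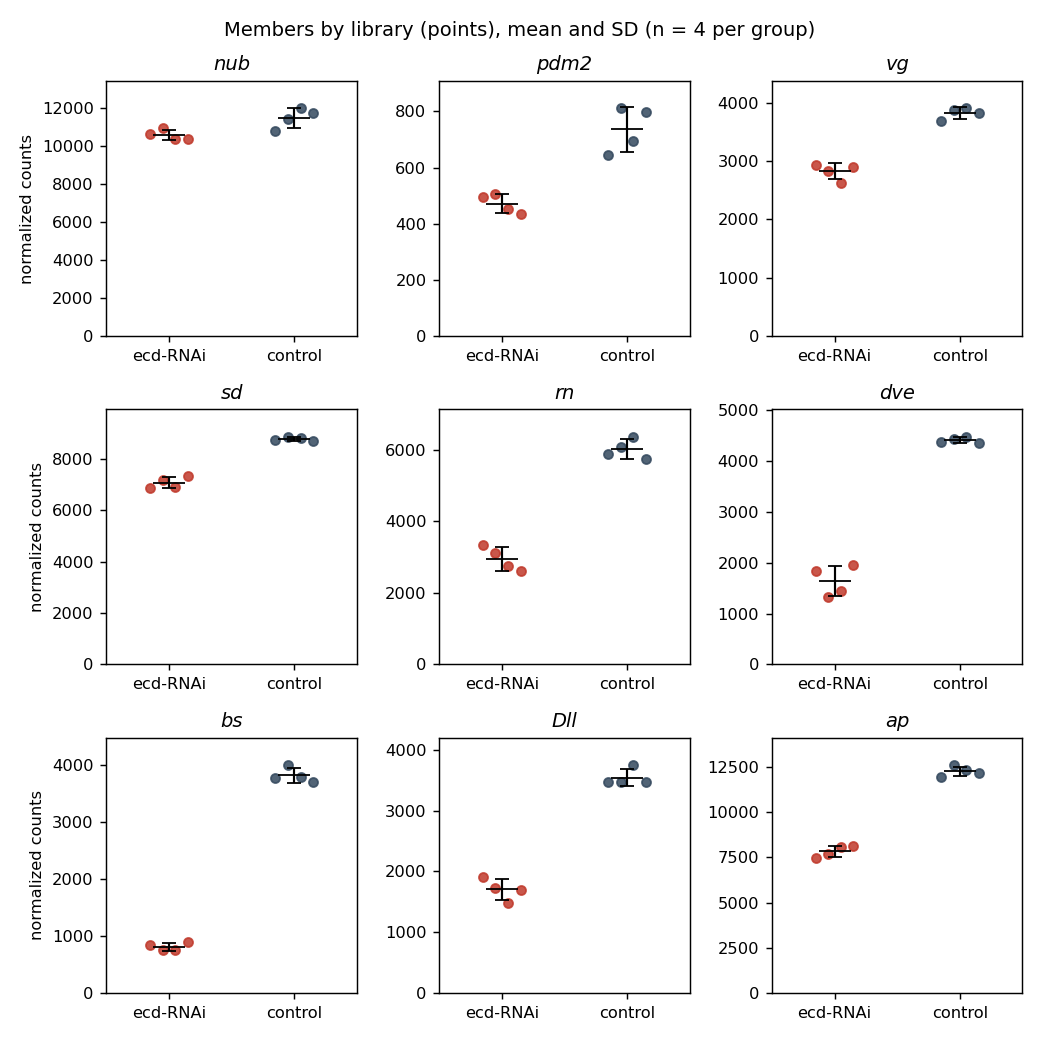
Normalized counts of each member in the 4 libraries labelled ecd-RNAi (left) and the 4 control libraries (right), with mean and SD as bars, on axes that start at 0. Only nub has overlapping groups, at 10349 to 10952 in libraries labelled ecd-RNAi against 10774 to 11975 in controls.

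The 2 POU homeodomain genes nub and pdm2, neighbouring paralogs best known for wing growth and for neural stem cell timing, differed in size of change. For nub (FBgn0085424, BDGP6 chromosome 2L, 12587625 to 12628135, plus strand) the normalized counts were 10639, 10952, 10349 and 10362 in libraries labelled ecd-RNAi, against 10774, 11430, 11975 and 11722 in controls. The groups overlapped, since ecd-RNAi replicate 2 lay above control replicate 1. The log2 fold change was -0.12 (SE 0.04, 95% interval -0.21 to -0.03, adjusted p = 0.0269, limma with Benjamini-Hochberg), and it became 0.04 with quantile normalization (adjusted p = 0.395). In 8 other settings the call was lost, among them when control replicate 2, 3 or 4, or else ecd-RNAi replicate 3 or 4, was left out (adjusted p between 0.0503 and 0.0833). Its direction thus depends on the scaling, and 38.9% of tested genes had a lower log2 fold change.

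Its paralog pdm2 (FBgn0004394, 2L, 12657165 to 12686306, plus strand) was at 494, 506, 452 and 435 normalized counts in libraries labelled ecd-RNAi, against 643, 811, 694 and 797 in controls. Every library labelled ecd-RNAi lay below every control library. The gene fell by 0.64 on the log2 scale (SE 0.08, adjusted p = 8.81e-05, limma with Benjamini-Hochberg). Within a library the log2 ratio of nub to pdm2 was 4.49 ± 0.07 in libraries labelled ecd-RNAi and 3.97 ± 0.14 in controls (SD, n = 4). The ratio was higher by 0.52 with no overlap (exact permutation test, two-sided, p = 0.0286, adjusted over 6 pairs to 0.0343, where 0.0286 is the smallest p that 4 against 4 libraries allow). A ratio within a library does not move with a scaling factor of that library.

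The genes around this locus did not move together. Ref2, an mRNA export factor gene on the minus strand whose span overlaps that of nub with no shared exonic bases, was at 365 ± 28.03 normalized counts in libraries labelled ecd-RNAi and 217 ± 19.4 in controls (SD, n = 4). It rose by a log2 fold change of 0.75 (SE 0.09, adjusted p = 3.40e-05, limma with Benjamini-Hochberg). The nearest tested gene on the other side of nub, bun, lay 41.0 kb away and rose as well, with a log2 fold change of 0.57 (adjusted p = 0.000192, limma with Benjamini-Hochberg). CCT4, a chaperonin subunit gene 4.03 kb beyond pdm2, was at 6653 ± 482 normalized counts in libraries labelled ecd-RNAi and 6480 ± 257 in controls (SD, n = 4) and did not pass (adjusted p = 0.579, limma with Benjamini-Hochberg).

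The selector pair vg and sd fell modestly. The cofactor gene vg (FBgn0003975, 2R, 12884201 to 12899385, plus strand) was at 2931, 2834, 2628 and 2905 normalized counts in libraries labelled ecd-RNAi, against 3676, 3871, 3902 and 3821 in controls. Its DNA-binding partner sd (FBgn0003345, X, 15804370 to 15827682, plus strand) was at 6873, 7158, 6913 and 7338 in libraries labelled ecd-RNAi, against 8717, 8847, 8819 and 8672 in controls. Neither gene had overlapping groups. The log2 fold changes were -0.44 for vg (SE 0.04, adjusted p = 7.30e-06, limma with Benjamini-Hochberg) and -0.31 for sd (SE 0.03, limma adjusted p = 1.37e-05). With quantile normalization they were -0.30 and -0.15, still called. The log2 ratio of vg to sd within a library was -1.32 ± 0.07 in libraries labelled ecd-RNAi and -1.20 ± 0.03 in controls (SD, n = 4). Here the groups overlapped, and the difference of -0.13 did not pass (exact permutation test, two-sided, p = 0.0571, adjusted 0.0571 over 6 pairs).

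The pouch genes rn and dve fell more. The zinc finger gene rn (FBgn0267337, 3R, 7272617 to 7309629, minus strand) was at 3341, 3129, 2753 and 2604 normalized counts in libraries labelled ecd-RNAi, against 5890, 6088, 6365 and 5750 in controls. It was 2.04-fold lower (log2 fold change -1.03, SE 0.07, adjusted p = 9.81e-07, limma with Benjamini-Hochberg). The homeobox gene dve (FBgn0020307, 2R, 22243963 to 22286469, plus strand) was at 1834, 1333, 1451 and 1948 in libraries labelled ecd-RNAi, against 4377, 4428, 4476 and 4362 in controls. The 4 libraries labelled ecd-RNAi all lay below controls but spread widely for dve, with a coefficient of variation of 18.02% against 1.17% in controls. Its log2 fold change was -1.44 (SE 0.11, adjusted p = 1.23e-06, limma with Benjamini-Hochberg).

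Rn acts with the cofactor Nab, whose gene nab fell to 476 ± 38.2 normalized counts in libraries labelled ecd-RNAi, against 685 ± 20.7 in controls (SD, n = 4; adjusted p = 3.87e-05, limma with Benjamini-Hochberg). The factor fell more than its cofactor. The log2 ratio of rn to nab was 2.63 ± 0.27 in libraries labelled ecd-RNAi and 3.13 ± 0.10 in controls (SD, n = 4), a difference of -0.51 (exact permutation test, two-sided, adjusted p = 0.0343 over 6 pairs).

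The homeobox gene Dll (FBgn0000157, 2R, 24814822 to 24835667, plus strand), a leg selector that in the pouch is a Wingless target around the dorsoventral boundary, was at 1910, 1734, 1475 and 1692 normalized counts in libraries labelled ecd-RNAi. In controls it was at 3472, 3472, 3745 and 3477. The groups were far apart, with a 2.08-fold lower mean (log2 fold change -1.06, SE 0.07, adjusted p = 5.09e-07, limma with Benjamini-Hochberg). At the same time wg, the Wingless ligand gene, rose 1.52-fold, to 3023 ± 354 in libraries labelled ecd-RNAi against 1992 ± 91.2 in controls (SD, n = 4; adjusted p = 7.18e-05, limma with Benjamini-Hochberg). Set against dve, Dll was retained more: their log2 ratio was 0.06 ± 0.24 in libraries labelled ecd-RNAi and -0.32 ± 0.04 in controls (SD, n = 4; difference 0.38, exact permutation test, two-sided, adjusted p = 0.0343 over 6 pairs).

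The dorsal selector ap (FBgn0267978, 2R, 5706202 to 5727525, minus strand), a LIM homeodomain gene, was at 7491, 7675, 8052 and 8154 normalized counts in libraries labelled ecd-RNAi, against 11964, 12595, 12309 and 12169 in controls. It was 1.56-fold lower in a tightly spread set of libraries (log2 fold change -0.64, SE 0.04, adjusted p = 2.20e-07, limma with Benjamini-Hochberg). The partner genes of Ap split. Chi, the adaptor that pairs Ap molecules, was at 1456 ± 96.8 in libraries labelled ecd-RNAi and 1450 ± 91.4 in controls (SD, n = 4; limma adjusted p = 0.939). Ssdp, which binds Chi, fell by 0.59 on the log2 scale (adjusted p = 2.80e-07, limma with Benjamini-Hochberg). Bx, the LMO protein that competes with Ap for Chi, fell by 0.38 (adjusted p = 0.00126, limma with Benjamini-Hochberg). The log2 ratio of ap to its antagonist Bx was 1.92 ± 0.14 in libraries labelled ecd-RNAi and 2.18 ± 0.04 in controls (SD, n = 4), lower by 0.27 in the libraries labelled ecd-RNAi with no overlap (difference -0.27, exact permutation test, two-sided, adjusted p = 0.0343 over 6 pairs).

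The largest change among members was that of bs (blistered; FBgn0004101, 2R, 24342861 to 24376473, plus strand). It was at 849, 745, 745 and 891 normalized counts in libraries labelled ecd-RNAi, against 3775, 3991, 3783 and 3700 in controls. No library of one group came near the other. The gene was 4.72-fold lower (log2 fold change -2.24, SE 0.06, adjusted p = 3.85e-09, limma with Benjamini-Hochberg), and 0.917% of tested genes had a lower log2 fold change. Mrtf, the cofactor of serum response factor, fell much less, to 2607 ± 196 in libraries labelled ecd-RNAi against 3637 ± 94.0 in controls (SD, n = 4; adjusted p = 1.74e-05, limma with Benjamini-Hochberg). The log2 ratio of bs to Mrtf was -1.69 ± 0.13 in libraries labelled ecd-RNAi and 0.07 ± 0.05 in controls (SD, n = 4; difference -1.76, exact permutation test, two-sided, adjusted p = 0.0343 over 6 pairs).

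An antisense RNA gene inside the span of bs, asRNA:bsAS (FBgn0266046, 2R, 24351477 to 24369689, minus strand), was looked at after its values were seen. It was at 102, 120, 48.2 and 18.6 normalized counts in libraries labelled ecd-RNAi, against 992, 1235, 1171 and 1437 in controls. It was 16.7-fold lower, with no overlap (log2 fold change -4.35, SE 0.48, adjusted p = 2.26e-05, limma with Benjamini-Hochberg). In the BDGP6 annotation its exons lie in bs introns and share 0 bases with bs exons, so exonic reads of one are not assigned to the other through overlap. The authors' use of strand is not given in the sources used here, and unspliced bs RNA on the plus strand would cross the antisense exons.

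**Figure D2:**
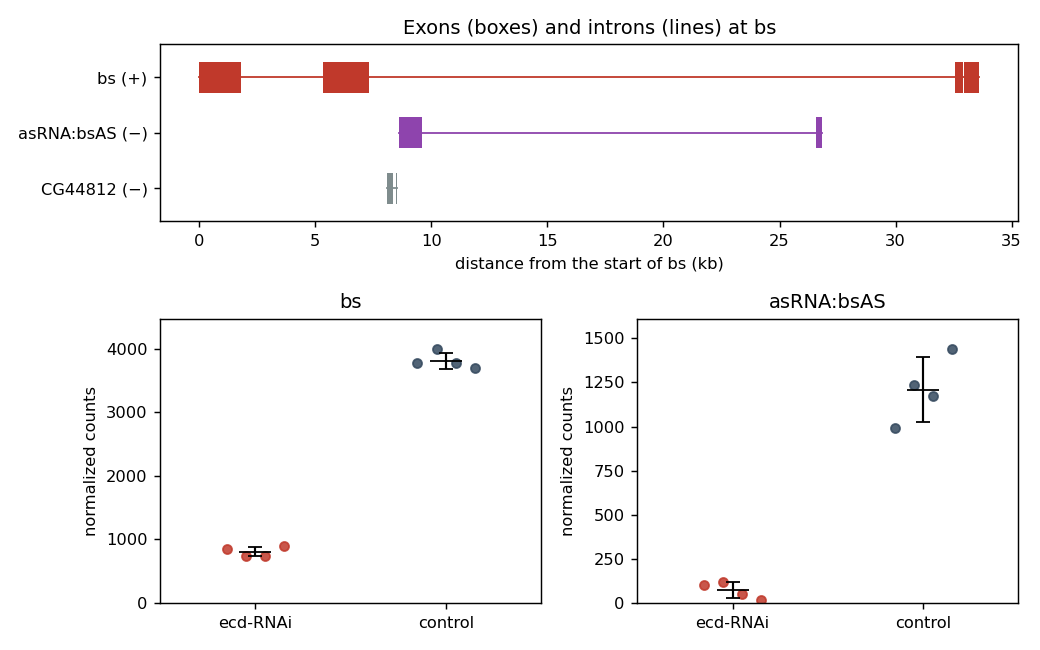
Top, exons of bs, asRNA:bsAS and CG44812 by distance in kb from the start of bs, with strand in brackets. Below, normalized counts of bs and asRNA:bsAS in each library labelled ecd-RNAi (left) and each control library (right), with mean and SD, where both genes are lower without overlap (4.72-fold and 16.7-fold).

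**Figure D3:**
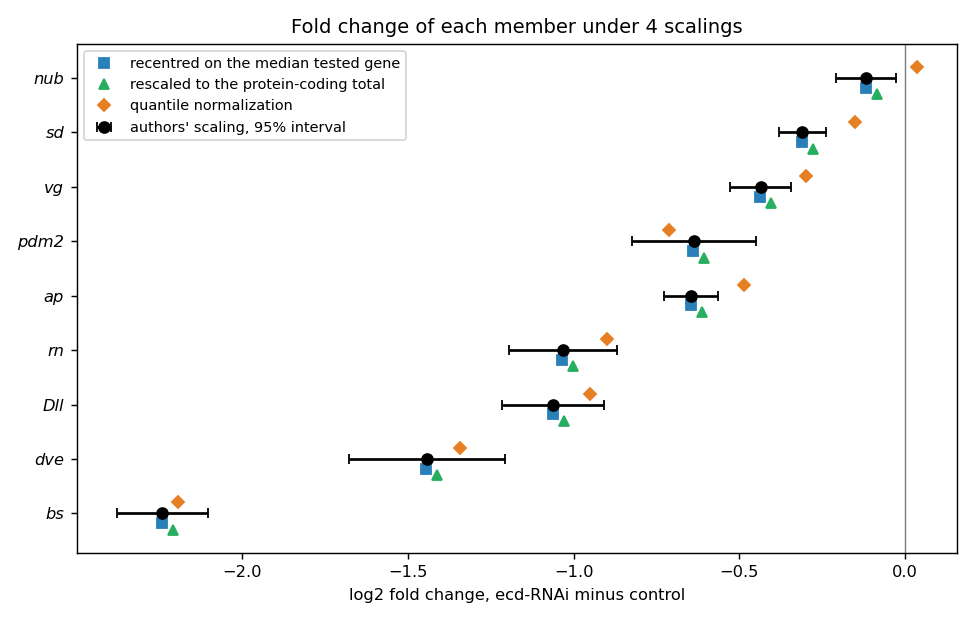
Log2 fold change of each member, libraries labelled ecd-RNAi minus control, with its 95% interval from limma under the authors' scaling and the value under each of 3 other scalings. The order from bs (-2.24) to nub (-0.12) spans most of the axis, and nub crosses 0 with quantile normalization (0.04).

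In the authors' deposited table, log2 fold changes ran from -2.24 for bs to -0.12 for nub, with adjusted p = 0.0114 for nub.

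**Figure D4:**
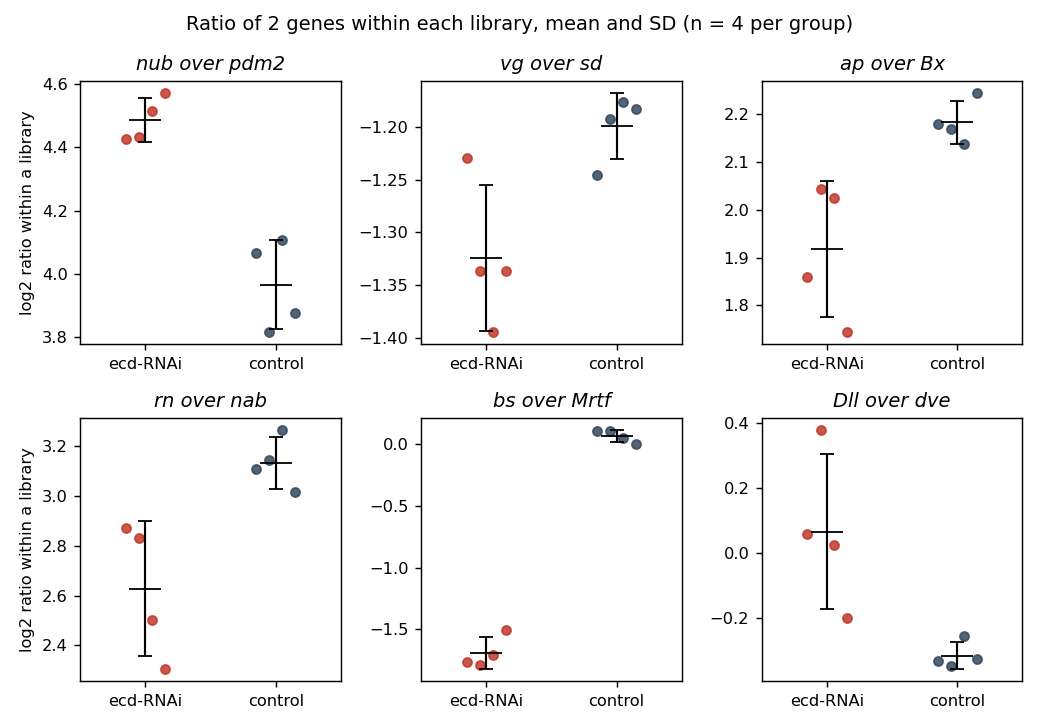
Log2 ratio of 2 genes within each library labelled ecd-RNAi (left) and each control library (right), with mean and SD. Ratios of nub to pdm2 and of Dll to dve are higher, those of ap to Bx, rn to nab and bs to Mrtf lower, and those of vg to sd overlap. Axes do not start at 0.

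Levels of different genes were compared per kilobase of merged exon. Merged exons join all annotated transcripts of a gene, and these values do not give which transcripts were present. The order of genes with close levels therefore depends on this length. In libraries labelled ecd-RNAi the order of mean levels, in normalized counts per kilobase, was nub (2004), ap (1815), sd (807), vg (725), Dll (515), rn (471), dve (333), bs (169) and pdm2 (102). Only Dll and rn had overlapping library ranges among neighbours in that order. In controls the order was ap (2838), nub (2174), Dll (1070), sd (999.7), vg (980.3), rn (960.2), dve (894), bs (796) and pdm2 (159). There the library ranges of sd and vg overlapped, as did those of vg and rn, and no other neighbours in the order overlapped. By this scale bs stood above 33.1% of tested protein-coding genes in libraries labelled ecd-RNAi and above 81.9% in controls, while nub stood above 94.8% in libraries labelled ecd-RNAi and above 94.5% in controls.

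Cofactors and antagonists of the members were mostly lower. Of 18 such genes 11 fell, 1 rose and 6 did not pass, with a median log2 fold change of -0.30. For this list and those below, the share over all tested genes was 31.7% called lower and 30.8% higher. The cofactor list gene that rose was Tgi, a corepressor partner of Sd, with a log2 fold change of 0.33 (adjusted p = 0.00437, limma with Benjamini-Hochberg). Without ecd-RNAi replicate 4 the count that rose was 2. The coactivator of Sd, yki, was at 1021 ± 48.2 normalized counts in libraries labelled ecd-RNAi and 945 ± 25.2 in controls (SD, n = 4) and did not pass (limma adjusted p = 0.0541). The largest decrease was that of hth, a homeobox gene that holds proximal and hinge identity, at 15646 ± 949 in libraries labelled ecd-RNAi against 28517 ± 462 in controls (SD, n = 4; adjusted p = 1.45e-07, limma with Benjamini-Hochberg).

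Of 17 patterning genes that act with or downstream of the members, 12 fell, 2 rose and 3 did not pass (median log2 fold change -0.36). The Iroquois gene mirr fell by 0.99, the alpha PS2 integrin gene if by 0.88 and the boundary gene ct by 0.88 on the log2 scale. The 2 that rose were wg, given above, and salr, a spalt-family gene, with a log2 fold change of 0.23 (adjusted p = 0.00341, limma with Benjamini-Hochberg).

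Among 15 vein and intervein genes 12 were called lower, 2 rose and 1, rho, did not pass (median log2 fold change -0.48). The lower calls and the median include aos, whose value is in doubt as given below. The gene kn, which controls the intervein between the third and the fourth vein, was 2.22-fold lower, and the Iroquois gene caup was 1.76-fold lower. The genes that rose were net, a repressor of vein formation, 1.59-fold, and ab, which acts in the fifth vein, 1.55-fold. The gene aos, an inhibitor of the EGF receptor, was listed at 0 in all 4 libraries labelled ecd-RNAi and at 230, 311, 380 and 411 normalized counts in controls. An exact 0 in these estimated values can be a failed estimate, so no fold is given. The genes vvl, kni and knrl also stand in the lists above.

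**Figure D5:**
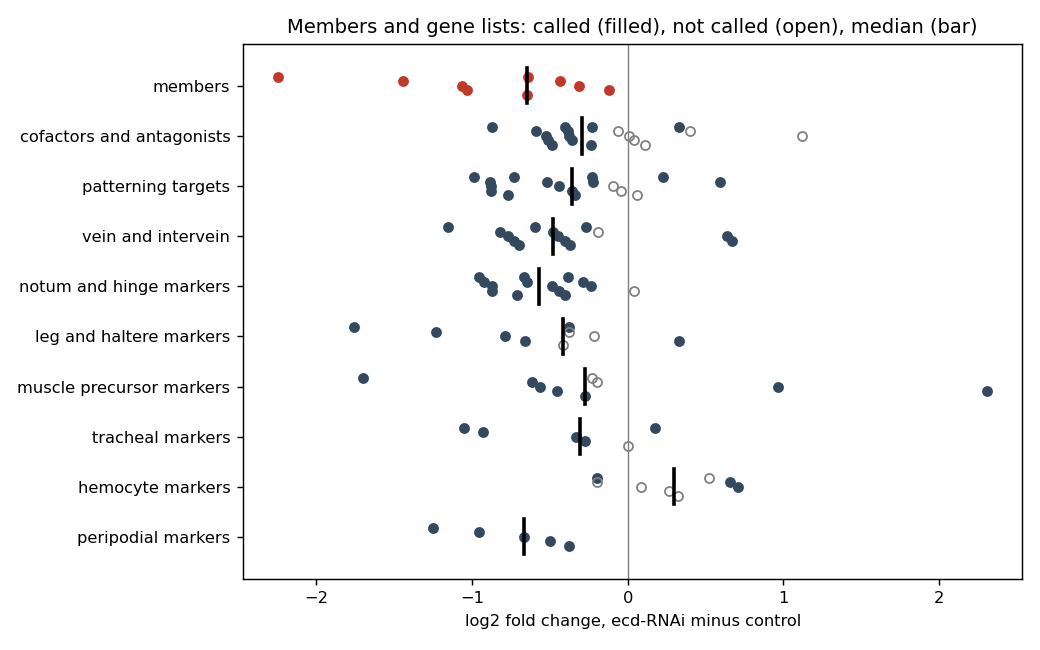
Log2 fold change, libraries labelled ecd-RNAi minus control, of each tested gene in the member set (red) and in each gene list (blue), filled where called and open where not, with the list's median as a bar. Genes to the left of 0 are lower in the libraries labelled ecd-RNAi. The point of aos is left out, but the median bar of its list includes it. The members' median is -0.64, that of the peripodial markers -0.67 and that of the notum and hinge markers -0.57. That of the hemocyte markers is 0.30, with 5 of 8 not called.

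Genes listed as markers of disc regions and cell types other than the pouch moved too. Of 14 notum and hinge markers, regions of which the driver covers part of the hinge only, 13 fell and 0 rose (median log2 fold change -0.57). The only one not called was zfh2. Their summed level ran from 49563 to 53618 normalized counts in libraries labelled ecd-RNAi and from 66465 to 70033 in controls. Most of it was zfh2 (means 25075 in libraries labelled ecd-RNAi and 24320 in controls) and hth (means 15646 and 28517). Of these markers 4 (hth, tsh, tio and zfh2) are also in the cofactor list. Examples of those that fell are ush, a cofactor of the notum GATA factor Pnr, 1.88-fold lower, and the homeobox gene B-H1, 1.93-fold lower. Lower calls were thus also made for genes of regions beyond the pouch.

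The counts in the next lists stand beside 31.7% called lower and 30.8% called higher over all tested genes. Of 9 tested genes listed as leg and haltere markers 5 fell and 1, Lim1, rose 1.25-fold with overlapping groups. In control wing discs these genes ranged from a mean of 42.9 normalized counts for Scr to 2787 for bab2. Their summed level ran from 4145 to 5916 normalized counts in libraries labelled ecd-RNAi and from 7581 to 8905 in controls. The haltere gene Ubx was at 1068 ± 300.1 in libraries labelled ecd-RNAi and 1356 ± 190 in controls and did not pass (SD, n = 4; limma adjusted p = 0.0978). The homeobox gene al was 3.38-fold lower and bab2, a regulator of leg segments, 2.33-fold lower. All 5 peripodial markers fell, bnb 2.35-fold, with a median log2 fold change of -0.67. Their sums ran from 6408 to 7853 in libraries labelled ecd-RNAi and from 12957 to 14102 in controls. Of the 9 genes listed as muscle precursor markers 5 fell (twi, Mef2, zfh1, htl and stumps) and 2, both myosin genes, rose. The largest change was a rise of Mlc2, a myosin light chain gene, to 998 ± 160 normalized counts in libraries labelled ecd-RNAi, against 206 ± 63.2 in controls (SD, n = 4; 4.85-fold, no overlap, adjusted p = 2.92e-06, limma with Benjamini-Hochberg). The myosin heavy chain gene Mhc rose 1.97-fold with overlapping groups (adjusted p = 0.0458, limma with Benjamini-Hochberg). The largest fall in this list was that of zfh1, 3.12-fold. Sums over the 9 genes ran from 4815 to 5495 in libraries labelled ecd-RNAi and from 6005 to 6197 in controls. Of 6 genes listed as tracheal markers 4 fell and 1, verm, rose 1.13-fold with overlapping groups. Their sums ran from 31364 to 35569 in libraries labelled ecd-RNAi and from 42146 to 45051 in controls. Most of each sum was uif, at a mean of 18939 in libraries labelled ecd-RNAi and 23768 in controls. The lowest of these markers, btl, was at a mean of 158 in libraries labelled ecd-RNAi and 191 in controls. Of 8 hemocyte markers 1, crq, fell and 2 rose (NimC1 1.67-fold and Hml 1.63-fold). The groups overlapped for crq and Hml. Sums of these markers ran from 2919 to 5143 in libraries labelled ecd-RNAi and from 2872 to 3403 in controls. Among libraries labelled ecd-RNAi, every hemocyte marker but crq was highest in replicate 1, with Hml at 1396 there and 589 to 945 in the others. Other processing, and leaving out a single library, moved some of the smaller of these counts. With quantile normalization 0 leg and haltere, 1 muscle precursor, 2 tracheal and 1 hemocyte markers rose. Without the mean trend in limma 0 leg and haltere, 1 muscle precursor and 1 hemocyte markers rose. With no filter on low values 1 muscle precursor marker rose. After rescaling to the protein-coding total 0 hemocyte markers fell. For leg and haltere markers 0 rose when ecd-RNAi replicate 1, 2 or 3, or else control replicate 2, 3 or 4, was left out. Only 1 muscle precursor marker rose without ecd-RNAi replicate 1, 3 or 4, or control replicate 2, 3 or 4. Of hemocyte markers 4 rose without ecd-RNAi replicate 2, and 1 rose without ecd-RNAi replicate 1, 3 or 4, or control replicate 4. In the same list 0 fell without ecd-RNAi replicate 1, 2 or 3, or control replicate 2, 3 or 4. No marker in the table was at 0 in all libraries. Which cells of the discs the listed markers report, and the part of other cells in the members' changes, were not tested.

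Among all tested genes, the profile over the 8 libraries closest to that of vg, by Euclidean distance between mean-centred log2 values, was that of vvl (distance 0.06), a POU gene of vein development. For dve it was opa (0.25), for bs CG3649 (0.34), for Dll how (0.09) and for rn Sec61beta (0.12). The profiles of sd, ap, pdm2 and nub lay closest to those of dlg1 (0.06), timeout (0.11), emp (0.20) and CG32264 (0.06). The second closest were PIG-B for vg, Wnt2 for dve, NetA for bs, mtgo for rn, Cp190 for sd, CycB for ap, CG5151 for pdm2, NELF-B for nub and FBgn0029082 for Dll. With 2 groups, closeness mostly reflects a like-sized group difference.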

How the data were processed

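Total RNA of 8 libraries (2 µg of RNA each, 4 per group, called biological replicates per the labels) was sequenced after rRNA removal. The labels disagree on single-end or paired-end reads. Per the submitters' processing notes, FastQC, cutadapt 3.5, kallisto 0.46.1 and DESeq2 1.34.0 were used on BDGP6; their settings, the transcripts and the strandedness are not stated there. The authors deposited normalized counts (a signal, never negative, not whole) and a table with the mean signal, log2 fold changes, p-values and a score, the Wald statistic, per the file headers. Low values stepped by about 1 read, but with the most frequent step 71.6% to 86.9% of values up to 20 reads were whole to within 0.1, so reads could not be recovered and no count test was run. The steps put depth at roughly 31100000 to 37500000 reads in libraries labelled ecd-RNAi and 29500000 to 36500000 in controls.

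limma 3.58.1 in R 4.3.3 was fitted (mean trend, two-sided, no covariate) to log2(normalized count + 1) of the 9380 genes whose mean reached 10, with Benjamini-Hochberg adjustment over all of them and calls at 0.05. The fit was also run on simulated data in which few genes changed and all libraries were equally scaled. That run cannot test the scaling between groups. Fold changes are on the log2(value + 1) scale, and N-fold values are ratios of group means. Ratios within libraries were tested by exact permutation with scipy 1.17.1. Coordinates and exon lengths are from the Ensembl annotation of BDGP6. Members and lists were chosen with earlier results of these data known. Named genes are all members, both genes of each pair, up to 3 called genes per direction with the largest changes from each list, the 2 closest profiles and the neighbours of nub and pdm2; others were chosen after their values were seen. Same-numbered libraries shared only a number (correlation of deviations -0.05 to 0.05 over the 4 pairs).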

Additional observations from a re-analysis of the deposited data

Results flagged for a closer look

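Among 218 sets of 4 libraries checked, 6 held a library far from the other 3 (the gap to the nearest, over the range, above Dixon's critical value). Chance alone gives about 1 in 20, a larger share, so flags were no more frequent than chance gives. Among members this was Dll in control replicate 3, at 3745 normalized counts with the other controls between 3472 and 3477. In libraries labelled ecd-RNAi, shf was at 1512 in replicate 2 (others 1342 to 1360), Lim1 at 253 in replicate 4 (others 303 to 313), ss at 687 in replicate 3 (others 892 to 902), the hemocyte marker He at 76.0 in replicate 1 (others 28.7 to 32.3) and bun at 12075 in replicate 2 (others 15057 to 15571).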

How the results depend on the processing

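The 8 members other than nub kept their direction and call in all 17 other settings, with log2 fold changes of -2.29 to -2.19 for bs and -0.33 to -0.15 for sd as the ends of the order. The log2 fold change of nub reversed to 0.038 with quantile normalization (the cause was not tested). Its call was lost after rescaling to the protein-coding total (-0.085, adjusted p = 0.0606), without the mean trend (-0.12, adjusted p = 0.0518) and with the replicate block (-0.12, adjusted p = 0.0527), which changed no other member's call. The replicate numbers do not pair the libraries. Without 1 library nub ranged from -0.15 to -0.10. The median tested gene stayed within 0.1 of 0 on the log2 scale in all settings. Genes called over the table were 2889 higher and 2970 lower, or 2796 and 2883 with the replicate block. Which direction was more common depended on the setting, with 2425 higher and 3227 lower after quantile normalization, 3099 and 2711 after rescaling to the protein-coding total, and 3384 and 2968 with no filter on low values. Of cofactors and antagonists 2 rose with a filter at a mean of 100, after rescaling to the protein-coding total and without ecd-RNAi replicate 4. With 4 against 3 libraries the exact test cannot go below 0.0571, so the ratio calls cannot hold without a library. Their differences then ranged from 0.47 to 0.57 (nub over pdm2), -0.31 to -0.21 (ap over Bx), -0.59 to -0.40 (rn over nab), -1.82 to -1.73 (bs over Mrtf) and 0.28 to 0.47 (Dll over dve).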
